A study of Mus musculus with 4 samples.

Results

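Cytochrome P450 enzymes were followed in back skin epidermis through the 47 genes, of 17721 in the deposited table, whose symbol has the form of Cyp, a number and a lower case letter; the rule left out 2 further genes of that form, Cyp4f39 and Cyp26b1. Cyp51, Ptgis and Tbxas1 encode P450 enzymes too but their symbols lie outside the rule. RNA-seq libraries came from LDB2-/- mice (2 libraries) and wild type mice (2 libraries), both of the C57BL/6 strain and 63 days old, from dispase-treated back skin (dispase is a protease used to part the epidermis from the dermis). LDB2 is a cofactor that brings LIM domain transcription factors together with other proteins at DNA. The labels do not say how the null allele was made, whether it was lost in all tissues, which sex the animals were, or whether each library was 1 animal, so the spread between libraries may be technical. The genes themselves are matched by symbol, but the set was chosen by looking at read counts of LDB2-/- against wild type in these same libraries. Fold changes and calls between the genotypes are therefore given as a description of these libraries.

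P450 enzymes are haem proteins that insert an oxygen atom into fatty acids, sterols, retinoids, vitamins and foreign chemicals. Those of the endoplasmic reticulum take electrons from the reductase encoded by Por, and those of mitochondria from ferredoxin and its reductase. In the symbol, the first number gives the family and the letter the subfamily, both set by protein similarity. Skin is known to use P450 enzymes to clear chemicals that touch it, to make lipid mediators from arachidonic acid, to build the omega-hydroxy fatty acids of the water barrier, and to make and break down vitamin D, retinoic acid and steroids.

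The libraries held 54095522 and 68436842 counts in LDB2-/- and 67307536 and 57517162 counts in wild type. The targeted gene Ldb2 had 0 and 0 counts in LDB2-/- and 0 and 8 in wild type, too few to check the genotype labels. Levels below are counts per 1000000 counts (CPM) scaled between libraries with TMM, and FPKM, the authors' value per transcript length, where genes are compared with each other. A gene was tested if it reached 1 FPKM in at least 2 libraries. It is said to have risen or fallen in LDB2-/- only if edgeR's quasi-likelihood test over all 12400 tested genes gave an adjusted p under 0.05. By that rule 57.2% of all tested genes were called, 28.4% of them higher and 28.8% lower in LDB2-/-. Hair shaft and inner root sheath markers were far higher in LDB2-/- (20 of 20 called higher, with summed levels of 130088 and 142000 CPM, against 226.6 and 903.2 CPM in wild type). Keratinocyte markers went the other way. In LDB2-/- 12 of 12 basal markers were lower (11350 and 11500 CPM summed, against 27490 and 25230 in wild type), as were 10 of 12 suprabasal and granular markers (5114 and 4816 CPM, against 32870 and 28270) and 15 of 15 sebaceous gland markers (3529 and 3296 CPM, against 9676 and 11830), and no marker of these 3 lists that the table holds was at 0 in both libraries of a genotype. Called higher in LDB2-/- were 10 of 10 melanocyte markers (1509 and 1726 CPM, against 41.56 and 65.4 in wild type). So were 6 of 6 tested skeletal muscle markers (58.42 and 51.94 CPM, against 4.882 and 3.775) and 5 of 5 tested endothelial markers. The tested endothelial markers, and those of skeletal muscle except Mylpf, were under 1 FPKM in both wild type libraries. The melanocyte markers Tyr, Slc45a2, Oca2 and Sox10 were too. Mc5r, Dgat2l6, Flg2 and Hrnr of the lower lists were under it in both LDB2-/- libraries. All these markers could be tested only because they differed. Of 10 tested fibroblast markers 8 were higher and 1 lower, and of 11 macrophage and Langerhans cell markers 4 were higher and 5 lower. More or fewer cells of a type and more or less RNA per cell cannot be told apart in such bulk samples. The part of these shifts in the P450 values below was not tested.

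Summed over the 47 genes, P450 transcripts were less abundant in LDB2-/- epidermis. Together they had 23213 and 26101 counts in LDB2-/- and 61037 and 72390 in wild type, which was 0.0429% and 0.0381% of the library in LDB2-/- and 0.0907% and 0.126% in wild type. After scaling, the sum was 467.6 and 438.7 CPM in LDB2-/- and 823.1 and 1120 CPM in wild type. The genotypes did not overlap, and the log2 ratio of the means was -1.10. One gene, Cyp2g1, made up much of the total, and without it the sum was 304.9 and 287.3 CPM in LDB2-/- and 590.9 and 601.0 CPM in wild type, a log2 ratio of -1.01. With Cyp4f39 and Cyp26b1, the genes that the rule left out, the sum was 630.9 and 624.7 CPM in LDB2-/- and 940.1 and 1232 CPM in wild type, a log2 ratio of -0.79.

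Of the 47 genes, 27 were tested. In LDB2-/- 5 rose (18.5% of those tested, against 28.4% of all tested genes) and 18 fell (66.7%, against 28.8%), and 4 were not called. The 2 genes that the rule left out were both called higher in LDB2-/-, with log2 fold changes of 0.60 for Cyp4f39 and 0.70 for Cyp26b1. At least a 2-fold difference was called for 4 genes higher (13.4% of all tested genes) and 17 genes lower (16.2%) in LDB2-/-. The median log2 fold change of the tested members was -1.57, beside -0.01 for all tested genes. The LDB2-/- and wild type values did not overlap for 24 of the 27, nor for 82.5% of all tested genes. The filter shaped this set: Cyp11a1 and Cyp27b1 were under 1 FPKM in both wild type libraries, and Cyp2j8, Cyp2r1, Cyp2w1, Cyp3a13 and Cyp4v3 were under it in both LDB2-/- libraries, so these 7 could be tested only because they differed. With scaling by the library total alone, the median of all tested genes moved to -0.33 and the calls over all genes to 2248 higher and 5096 lower, against 3521 and 3576 with TMM, while the P450 genes had 4 called higher and 18 called lower. Of all genes with an adjusted p in the authors' deposited table, 47.6% were under 0.05. Of the 46 members with such a p there, 7 were under it and higher in LDB2-/- and 21 were under it and lower.

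**Figure D1:**
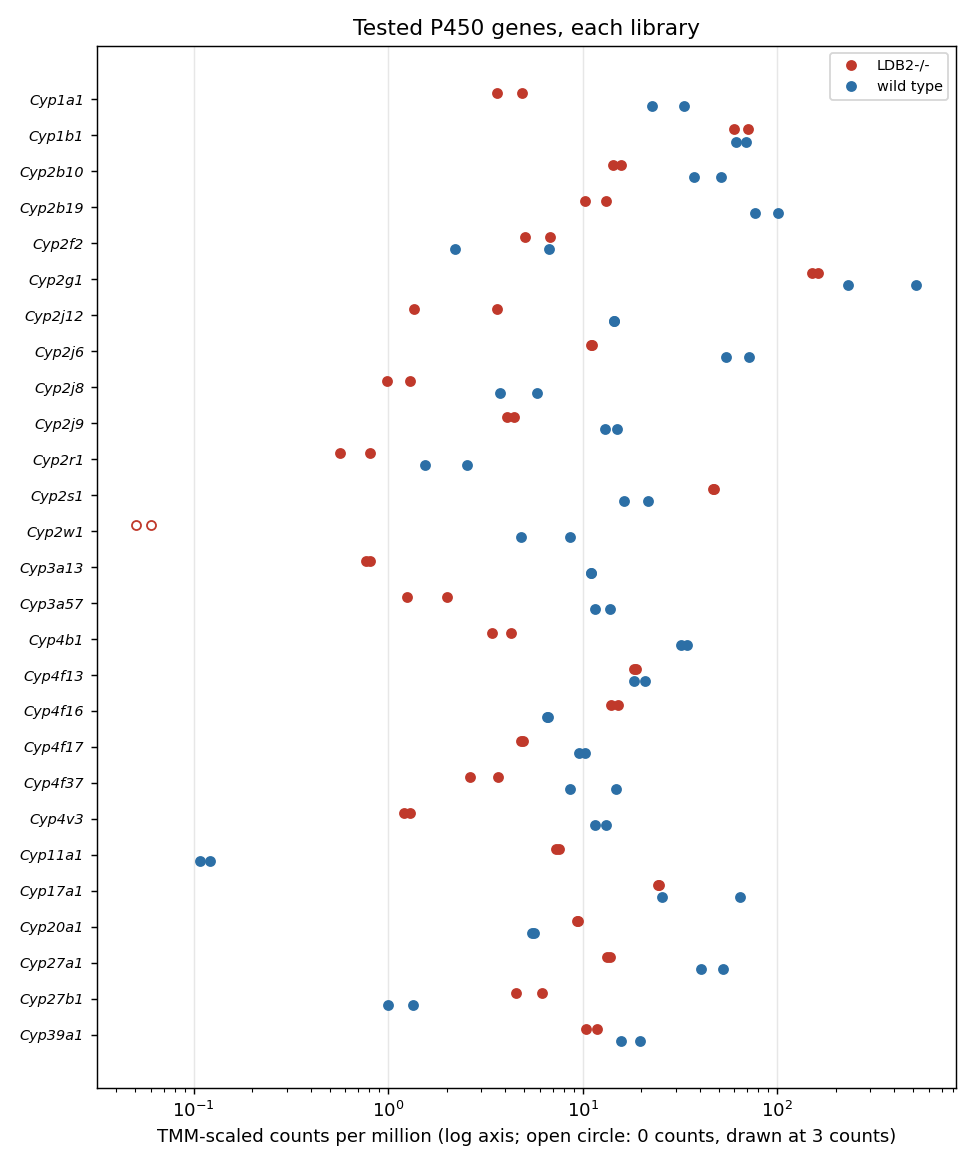
TMM-scaled CPM of the 27 tested P450 genes in each library, on a log axis, with the LDB2-/- libraries above the wild type libraries of the same gene and families in numerical order. Open circles mark 0 counts and are drawn at the level of 3 counts. Both LDB2-/- points lie left of both wild type points for most genes, and far right of them for Cyp11a1.

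The 47 genes fell into 14 families, 9 of them with a single member among the 47. The summed level was lower in LDB2-/- for 10 families, and the genotypes did not overlap for 12. Gene by gene, 82.5% of all tested genes did not overlap either. Family 4 is among the 12 only without Cyp4f39. Family 2, with 19 genes the largest, had 265.6 and 251.0 CPM in LDB2-/- and 518.8 and 764.0 CPM in wild type. It held 56.8% and 57.2% of all P450 counts in LDB2-/- and 63.0% and 68.2% in wild type. Family 3 differed most among families with several members. Its 4 genes summed to 2.18 and 3.11 CPM in LDB2-/- and to 22.6 and 24.9 CPM in wild type, a log2 ratio of -3.17. Family 4, with 11 genes, had 49.5 and 46.7 CPM in LDB2-/- and 90.3 and 98.2 CPM in wild type (log2 ratio -0.97). This gap rests on the rule: Cyp4f39, the family 4 gene left out, had 144.9 and 161.7 CPM in LDB2-/- and 102.8 and 99.55 CPM in wild type, and with it the family summed to 194.4 and 208.4 CPM in LDB2-/- and 193.1 and 197.7 CPM in wild type (log2 ratio 0.04). Family 1 had 75.2 and 63.5 CPM in LDB2-/- and 83.9 and 102.5 CPM in wild type (log2 ratio -0.43). Its share of P450 counts was larger in LDB2-/-, at 16.1% and 14.5%, against 10.2% and 9.15% in wild type.

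**Figure D2:**
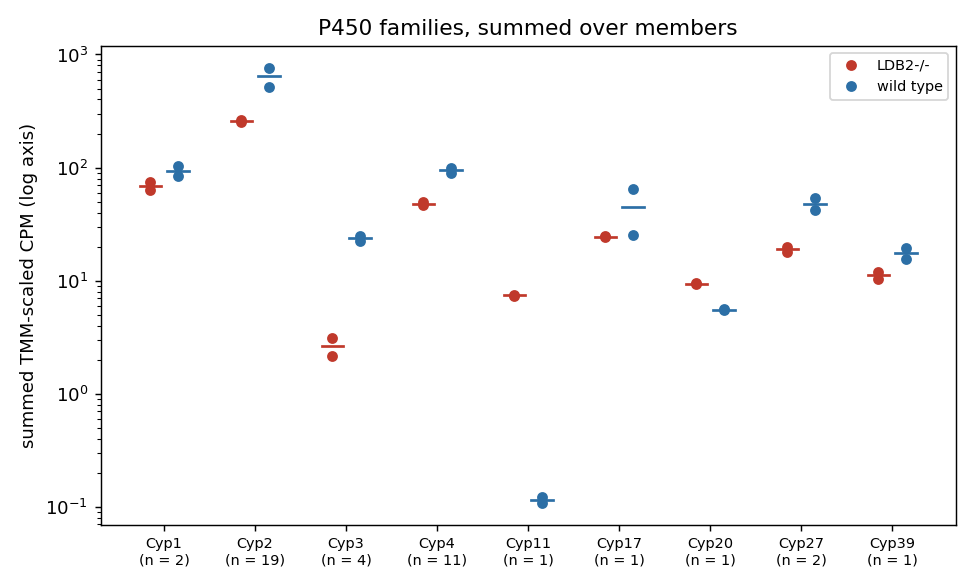
Summed TMM-scaled CPM of P450 families with a mean of 5 CPM or more in a genotype, on a log axis, with LDB2-/- left of wild type. Points are libraries, lines are genotype means and n is the number of genes, without Cyp4f39 and Cyp26b1. Family 3 shows a wide gap below wild type, family 11 a wide gap above it.

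Among the 47 genes the highest transcript per length was Cyp2g1, with 79.4 and 69.7 FPKM in LDB2-/- and 136.0 and 310.3 FPKM in wild type. Next by the mean over the 4 libraries came Cyp2b19, Cyp17a1, Cyp2b10, Cyp27a1 and Cyp1b1. The order within the 47 differed between the genotypes: in LDB2-/- Cyp2s1 was next after Cyp2g1, with a mean of 15.7 ± 0.558 FPKM (SD, n = 2), whereas in wild type it was Cyp2b19, with 35.5 ± 6.29 FPKM. In LDB2-/-, Cyp17a1 (11.7 ± 0.602 FPKM) and Cyp1b1 (11.2 ± 1.72 FPKM), the next in that order, did not differ beyond their spread.

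Family 1 enzymes oxidise polycyclic hydrocarbons and are induced through the aryl hydrocarbon receptor. Its 2 genes parted. Cyp1a1 (gene ID 13076, chromosome 9, 57687928 to 57703824, mm10) had 4.88 and 3.63 CPM in LDB2-/- and 22.6 and 33.3 CPM in wild type. Every LDB2-/- value was far below every wild type value, and Cyp1a1 fell by 2.72 on the log2 scale (SE 0.28). Cyp1b1 (gene ID 13078, chromosome 17, 79706940 to 79715061), which also oxidises oestrogens, had 70.3 and 59.9 CPM in LDB2-/- and 61.4 and 69.2 CPM in wild type. These ranges overlap, and the log2 fold change was 0.00 (SE 0.13, not called). Cyp1b1 had more transcript per length than Cyp1a1 in LDB2-/- (12.4 and 9.96 FPKM, against 1.68 and 1.15 FPKM), whereas in wild type they were alike (12.99 and 14.94 FPKM, against 9.34 and 14.1 FPKM).

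The receptor binds DNA at a core of the letters GCGTG, so the 250 bases before a RefSeq transcript start of both genes are shown (build GRCm38.p6; for Cyp1a1 the start used lies inside the gene interval given above, which opens at the start of a longer transcript), with those of Cyp2w1, a family 2 gene described below that had no counts in LDB2-/-. Capitals mark GCGTG or its reverse complement, and TATAAA, the TATA box, which was searched on both strands too; the matches did not overlap.
Cyp1a1, chr9:57697363-57697612, plus strand: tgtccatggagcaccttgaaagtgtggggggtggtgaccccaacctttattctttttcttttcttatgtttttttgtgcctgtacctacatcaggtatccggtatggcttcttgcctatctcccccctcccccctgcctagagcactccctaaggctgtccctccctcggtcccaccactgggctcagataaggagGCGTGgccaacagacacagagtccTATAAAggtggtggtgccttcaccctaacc
Cyp1b1, chr17:79715062-79715311, minus strand: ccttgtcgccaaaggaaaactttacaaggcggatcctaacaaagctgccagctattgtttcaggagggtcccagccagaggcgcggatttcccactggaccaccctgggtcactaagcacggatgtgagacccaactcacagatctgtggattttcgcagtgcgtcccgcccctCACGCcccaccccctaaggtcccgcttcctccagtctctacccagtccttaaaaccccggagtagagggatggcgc
Cyp2w1, chr5:139352366-139352615, plus strand: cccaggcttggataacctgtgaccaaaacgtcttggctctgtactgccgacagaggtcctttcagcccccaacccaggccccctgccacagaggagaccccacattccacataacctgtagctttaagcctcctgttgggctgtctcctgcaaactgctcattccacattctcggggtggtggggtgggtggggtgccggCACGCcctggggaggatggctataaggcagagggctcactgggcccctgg
Each window held 1 GCGTG match, which began 54 bases before the start of Cyp1a1, 76 before that of Cyp1b1 and 50 before that of Cyp2w1. Cyp1a1 alone of these 3 had a TATAAA match, 30 bases before its start. GCGTG was present in 28.1% of the 32817 promoters of the table and in 12 of the 36 P450 genes with an entry there (33.3%), and TATAAA in 12.4% and in 5 of 36 (13.9%). The first share counts promoters. The P450 share counts genes with a match in any of their promoters, so the shares are not strictly comparable. A GCGTG match was found for Cyp1a1, which fell, and for Cyp1b1, which was not called. Bases further than 250 upstream were not searched, and binding of the receptor was not tested.

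A wider list held xenobiotic receptor genes and aryl hydrocarbon receptor targets, with other receptor genes such as Nr3c1, Ppara and Pparg. Of its 16 tested genes, 11 fell, 3 rose and 2 were not called (87.5% called, against 57.2% of all tested genes). The median log2 fold change was -1.09. The aryl hydrocarbon receptor gene Ahr itself had 19.8 and 15.4 CPM in LDB2-/- and 122.3 and 140.5 CPM in wild type, a log2 fold change of -2.90 (SE 0.17). Its partner gene Arnt was not called. The fatty acid receptor genes Ppara and Pparg fell too, with log2 fold changes of -2.91 and -2.15, as did the aldehyde dehydrogenase gene Aldh3a1 (-2.15) and Arnt2 (-2.08). Ppara and Arnt2 were under the filter of 1 FPKM in both LDB2-/- libraries, so they could be tested only because they differed. Pparg also stands on the sebaceous gland list. Of the 3 that rose, Ugt1a6a, a glucuronosyltransferase, had the largest fold change (1.34). The other Ugt1a genes of the list differed from it. Ugt1a7c fell (-1.04), and Ugt1a6b was not called (1.15), with 10.0 and 25.7 CPM in LDB2-/- and 10.2 and 5.86 CPM in wild type.

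Family 2 was led by a cluster on chromosome 7 (25802469 to 27133660) that holds 9 of the members, of which 5 were tested: Cyp2b10, Cyp2b19 and Cyp2g1 fell, Cyp2s1 rose, and Cyp2f2 was not called. Cyp2b19 (gene ID 13090), a mouse keratinocyte enzyme that turns arachidonic acid into epoxides, had 13.2 and 10.3 CPM in LDB2-/- and 100.8 and 76.8 CPM in wild type. It fell by 2.92 on the log2 scale (SE 0.20), with no overlap of the libraries. Cyp2b10, best known as a drug-induced liver enzyme, had 14.3 and 15.8 CPM in LDB2-/- and 51.2 and 37.3 CPM in wild type, and fell by 1.55 (SE 0.19). Of the 50-base windows of its transcript 9.69% also occur in transcripts of other genes, mainly of its own subfamily, against 2.45% for Cyp2b19, so the Cyp2b10 value is the less certain. Cyp2b23 and Cyp2b9 were too low to test, with 0 and 0 counts each in LDB2-/- and with 41 and 19 counts of Cyp2b23 and 22 and 8 of Cyp2b9 in wild type. Cyp2b13, with 0 and 11 counts in LDB2-/- and 9 and 6 in wild type, showed no such gap. Other genes share 27.3% of the windows of Cyp2b13, 11.2% of Cyp2b9 and 4.44% of Cyp2b23, so these low counts are uncertain too.

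Next to the Cyp2b genes lie Cyp2g1, Cyp2a5 and Cyp2f2. Cyp2g1 (gene ID 13108), known from the olfactory mucosa, had 162.7 and 151.4 CPM in LDB2-/- and 232.2 and 519.1 CPM in wild type. It fell by 1.26 on the log2 scale (SE 0.36), and by 0.56 without wild type replicate 2, so the size of this fall rests on that library. Cyp2a5, the mouse coumarin hydroxylase, was not tested and had 6 and 7 counts in LDB2-/-, against 60 and 152 in wild type. Of its windows 40.8% occur in other genes, first Cyp2a4, so its counts are uncertain. Cyp2f2, which activates naphthalene in mouse airways, had 6.75 and 5.08 CPM in LDB2-/- and 2.21 and 6.73 CPM in wild type. These overlap, and its log2 fold change of 0.40 (SE 0.53) was not called, but became a call of 1.42 without wild type replicate 2.

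These 3 neighbours and Cyp17a1, a steroid hydroxylase gene on chromosome 19, shared a pattern among the wild type libraries. They were the only 4 of the 34 members with a count in every library that were at least 2-fold higher in wild type replicate 2 than in replicate 1, by 1.61 on the log2 scale for Cyp2f2, 1.54 for Cyp2a5, 1.34 for Cyp17a1 and 1.16 for Cyp2g1. None of these 34 was at least 2-fold lower there. The LDB2-/- libraries differed little in the same genes, by -0.41, -0.04, -0.02 and -0.10 for replicate 2 over replicate 1. The share of all genes at least 2-fold higher in wild type replicate 2 is not given here. The summed hair shaft and inner root sheath markers also differed between the wild type libraries, by 1.995 on the log2 scale. Melanocyte (0.654), endothelial (0.646) and sebaceous markers (0.29) were higher in replicate 2 too. Skeletal muscle (-0.371), suprabasal and granular (-0.217) and basal markers (-0.124) were lower. The part of these markers in the P450 values was not tested.

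Cyp2s1 (gene ID 74134) lies at the edge of the same cluster and behaved differently. This epithelial enzyme of retinoid and eicosanoid metabolism had 46.8 and 47.1 CPM in LDB2-/- and 16.3 and 21.6 CPM in wild type. Both LDB2-/- libraries were above both wild type libraries, and Cyp2s1 rose by 1.31 (SE 0.17).

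The 5 Cyp2j genes among the members, which encode arachidonic acid epoxygenases, lie together on chromosome 4 (96099316 to 96664171), and all 4 that were tested fell. Cyp2j6 had 11.14 and 10.98 CPM in LDB2-/- and 71.5 and 54.5 CPM in wild type, and fell by 2.51 on the log2 scale (SE 0.17). Cyp2j12 had 3.61 and 1.36 CPM in LDB2-/- and 14.4 and 14.5 CPM in wild type (log2 fold change -2.55, SE 0.46, and -3.40 without LDB2-/- replicate 1). Its LDB2-/- libraries differed by more than 2-fold from each other and still lay below both wild type libraries. Cyp2j9 had 4.09 and 4.42 CPM in LDB2-/- and 14.92 and 12.95 CPM in wild type, a fall of 1.71 (SE 0.21). Cyp2j8 had 0.987 and 1.29 CPM in LDB2-/- and 3.74 and 5.79 CPM in wild type, a fall of 2.06 (SE 0.36). The fifth gene, Cyp2j5, had 2 counts in 1 wild type library and none elsewhere. Of the 50-base windows of each of these transcripts under 1% occur in another gene, 0.866% in Cyp2j12 at the most, so reads can be told apart here.

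Cyp2w1 (gene ID 545817, chromosome 5, 139352616 to 139359607), known in humans from colon tumours, was the extreme case among the lower genes. It had 0 and 0 counts in LDB2-/- and 357 and 557 counts in wild type, or 4.81 and 8.62 CPM. A count of 0 allows up to 0.0604 and 0.0504 CPM in LDB2-/- replicates 1 and 2, for counting error only. Against 3 counts over the LDB2-/- group, the level was at least 239.6-fold lower in LDB2-/-. Cyp2r1, the hydroxylase of the first step of vitamin D activation, had 0.564 and 0.807 CPM in LDB2-/- and 2.55 and 1.55 CPM in wild type. It fell by 1.57 (SE 0.43), but was not called with filterByExpr, with no filter (-1.60) or without wild type replicate 1 (-1.17).

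Family 3 holds the main drug and steroid oxidases of liver and gut. Cyp3a13 (gene ID 13113, chromosome 5, 137892933 to 137925610) had 0.806 and 0.773 CPM in LDB2-/- and 11.06 and 11.05 CPM in wild type. Libraries of a genotype were nearly equal, and Cyp3a13 fell by 3.80 on the log2 scale (SE 0.25). Cyp3a57 had 1.25 and 2 CPM in LDB2-/- and 11.6 and 13.8 CPM in wild type, a fall of 2.96 (SE 0.31), and shared 8.88% of its windows with other genes, first Cyp3a59. The other 2 were not tested: Cyp3a16 had 6 and 20 counts in LDB2-/- and 0 and 0 in wild type, and Cyp3a25 had 0 and 0 counts in LDB2-/- and 0 and 4 in wild type.

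Family 4 enzymes hydroxylate the far end of fatty acids and eicosanoids. Cyp4b1 (gene ID 13120, chromosome 4, 115624698 to 115647721), which acts on medium chain fatty acids and activates some plant toxins, had 4.29 and 3.40 CPM in LDB2-/- and 31.8 and 34.4 CPM in wild type. It fell by 3.11 on the log2 scale (SE 0.20). Of the windows of Cyp4b1 10.3% occur in other genes, first Cyp4b1-ps2. This pseudogene, which shares 34.2% of its own windows, had 0 and 0 counts in LDB2-/- and 22 and 8 in wild type. Cyp4v3, the mouse counterpart of a human gene of retinal dystrophy, had 1.29 and 1.21 CPM in LDB2-/- and 11.6 and 13.2 CPM in wild type. It fell by 3.31 (SE 0.24), with no overlap.

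The Cyp4f genes, fatty acid hydroxylases of which mouse Cyp4f18 is known to act on leukotriene B4, did not move together. Of the 6 members of the cluster on chromosome 17 (32506192 to 32965716), 4 were tested, and 1 rose, 2 fell and 1 was not called. Cyp4f16 had 15.1 and 13.9 CPM in LDB2-/- and 6.54 and 6.59 CPM in wild type, and rose by 1.14 on the log2 scale (SE 0.19). Cyp4f17, its neighbour, had 4.83 and 4.92 CPM in LDB2-/- and 9.53 and 10.2 CPM in wild type, and fell by 1.02 (SE 0.21). Cyp4f37, the next member after Cyp4f16 on the chromosome, had 3.69 and 2.64 CPM in LDB2-/- and 8.56 and 14.8 CPM in wild type, and fell by 1.88 (SE 0.35). Cyp4f13 had 18.7 and 18.3 CPM in LDB2-/- and 20.9 and 18.3 CPM in wild type, which overlap (log2 fold change -0.08, SE 0.16, not called). Cyp4f16 and Cyp4f37 share 26.5% and 21.7% of their windows with other genes, each most often with the other, so reads could have been assigned to the wrong one of this pair, whose values run in opposite directions. The 7 Cyp4f genes among the members summed to 43.8 and 42.1 CPM in LDB2-/- and 46.5 and 50.5 CPM in wild type. With Cyp4f39 the direction of the sum turned, to 188.7 and 203.8 CPM in LDB2-/- and 149.2 and 150 CPM in wild type. Cyp4f18 was not tested, with 64 and 107 counts in LDB2-/- and 39 and 18 in wild type.

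**Figure D3:**
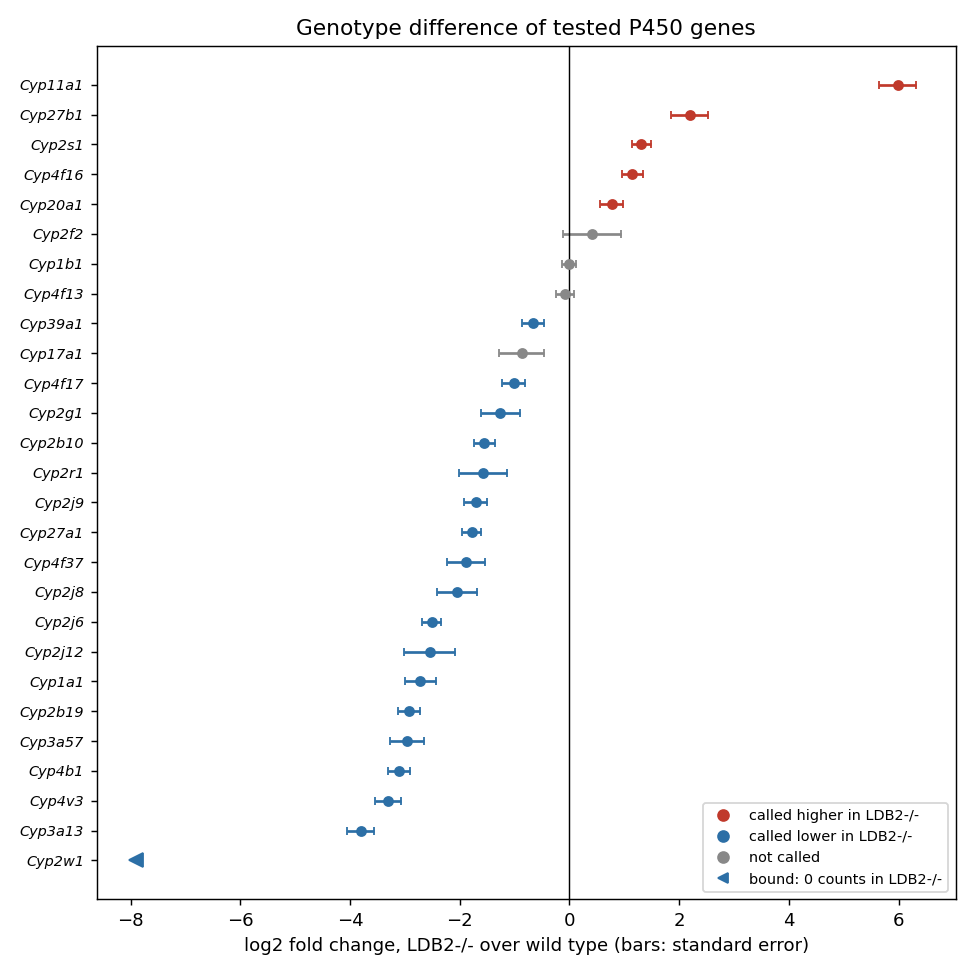
Log2 fold change of LDB2-/- over wild type for the 27 tested P450 genes, sorted, with bars of 1 standard error from the edgeR fit. The triangle of Cyp2w1 is a bound, since LDB2-/- had 0 counts. Cyp11a1 stands apart at 5.98 on the higher side, and 18 genes lie on the lower side as called.

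Among steroid enzymes, Cyp11a1 (gene ID 13070, chromosome 9, 57998024 to 58027031), which cleaves the side chain of cholesterol in the first step of all steroid hormone synthesis, had the largest rise. It had 363 and 447 counts in LDB2-/- and 9 and 7 in wild type, or 7.31 and 7.51 CPM in LDB2-/- and 0.121 and 0.108 CPM in wild type. The log2 fold change was 5.98 (SE 0.34). Its level per length in LDB2-/- stayed modest beside other members, at 2.37 and 2.29 FPKM. Star, which carries cholesterol to this enzyme, was not tested and had 251 and 236 counts in LDB2-/-, against 87 and 86 in wild type. Cyp17a1 (gene ID 13074, chromosome 19, 46667165 to 46673000), the enzyme on the way to androgens, had 24.7 and 24.4 CPM in LDB2-/- and 25.4 and 64.2 CPM in wild type. Its log2 fold change of -0.87 (SE 0.41) was not called; without wild type replicate 1 it was called, at -1.39. Cyp21a1, an adrenal hydroxylase, had 32 and 17 counts in LDB2-/- and 22 and 0 in wild type.

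Of 15 tested genes on the list of steroid hormone enzymes and receptors, 10 fell, 0 rose and 5 were not called, with a median of -0.90. The share called was 66.7%, against 57.2% of all tested genes. With filterByExpr or with no filter, 2 genes of the list were called higher and 11 lower. Untested Hsd11b2, which inactivates glucocorticoids, had 93 and 102 counts in LDB2-/- and 20 and 34 in wild type, the same direction as Star. Untested Hsd17b6 (17 and 0 counts in LDB2-/-, 67 and 123 in wild type) and Nr3c2 (0 and 0, against 28 and 53) went the other way. Log2 fold changes were -2.52 for the oestrogen receptor gene Esr1, -2.16 for the hydroxysteroid dehydrogenase gene Hsd3b6, -2.13 for Akr1c18 and -1.84 for the glucocorticoid receptor gene Nr3c1. Akr1c18, a progesterone-inactivating reductase, had 55.3 and 63.4 CPM in LDB2-/- and 150.9 and 367.5 CPM in wild type, so its wild type libraries differed in the same direction as those of Cyp17a1.

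The vitamin D enzymes changed in different directions. Cyp27b1 (gene ID 13115, chromosome 10, 127048246 to 127054884), which makes the active hormone, had 6.16 and 4.54 CPM in LDB2-/- and 0.998 and 1.35 CPM in wild type. It rose by 2.19 on the log2 scale (SE 0.33), with no overlap of the genotypes. Cyp27a1 (gene ID 104086, chromosome 1, 74713148 to 74737897), a mitochondrial sterol hydroxylase of the same family, had 13.8 and 13.4 CPM in LDB2-/- and 52.8 and 40.6 CPM in wild type, and fell by 1.78 (SE 0.17). The family sum followed the more abundant Cyp27a1 and was 19.9 and 17.9 CPM in LDB2-/- and 53.8 and 41.9 CPM in wild type. The vitamin D receptor gene Vdr was not called (log2 fold change 0.07, SE 0.12). Of 9 tested genes of the vitamin D list, 4 fell, 1 rose and 4 were not called (median -0.37). The share called, 55.6%, was near the 57.2% of all tested genes. Log2 fold changes were -2.28 for the calcium channel gene Trpv6, -0.97 for Rxra, 0.60 for Pdia3, -0.57 for Ncoa3 and -0.41 for Dhcr7.

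Besides the sterol hydroxylase gene Cyp27a1, given above, Cyp39a1 was tested among the oxysterol enzyme genes. It had 10.4 and 11.9 CPM in LDB2-/- and 19.6 and 15.7 CPM in wild type and fell by 0.66 on the log2 scale (SE 0.20), but was not called without LDB2-/- replicate 1 (-0.56) or without wild type replicate 1 (-0.49). Cyp7b1 was not tested and had 26 and 40 counts in LDB2-/- and 61 and 70 in wild type. Of the cholesterol and oxysterol list 12 of 20 fell, 1 rose and 7 were not called (median -0.59, 65% called, against 57.2% of all tested genes). Ch25h, which makes an oxysterol, had 0 CPM in both LDB2-/- libraries and 3.34 and 1.56 CPM in wild type. Log2 fold changes were -2.40 for the cholesterol exporter gene Abca1, -2.09 for the oxysterol receptor gene Nr1h3 and -1.38 for the synthesis gene Hmgcs1.

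Cyp20a1, an orphan enzyme with no settled substrate, had 9.45 and 9.38 CPM in LDB2-/- and 5.48 and 5.59 CPM in wild type. It rose by 0.77 on the log2 scale (SE 0.20), the smallest rise called, and was not called without LDB2-/- replicate 2 (0.77), wild type replicate 1 (0.75) or wild type replicate 2 (0.78), nor with scaling by the library total (0.45). Cyp26a1, which breaks down retinoic acid, was under the filter and had 61 and 71 counts in LDB2-/- and 0 and 0 in wild type. Against 3 counts over the wild type group, it was at least 55.9-fold higher in LDB2-/-.

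In all, 20 members were not tested, and 14 of them had fewer than 50 counts in every library. The 6 others were Cyp26a1, Cyp2a5, Cyp4f18 and Cyp7b1, given above, with Cyp2d22 and Cyp46a1. Cyp2d22 had 48 and 96 counts in LDB2-/- and 150 and 81 in wild type. Cyp46a1, the cholesterol hydroxylase of brain, had 35 and 39 counts in LDB2-/- and 95 and 98 in wild type. The rest were the fatty acid hydroxylase genes Cyp2u1 and Cyp4a10, the bile acid gene Cyp8b1, Cyp2ab1, Cyp4f14 and the pseudogene Cyp4f41-ps, beside those already named. Of the 6 hepatocyte markers in the table, only the transferrin gene Trf was tested, with 34.03 and 43.63 CPM in LDB2-/- and 10.21 and 12.05 CPM in wild type. The others, the albumin gene Alb among them, each had 37 counts or fewer in every library.

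The supply of electrons and haem to these enzymes was mixed. Por, the reductase gene of the microsomal enzymes, had 115.7 and 128.9 CPM in LDB2-/- and 116.4 and 146.4 CPM in wild type and was not called. Of 23 tested genes of redox partners and haem supply, 9 fell, 5 rose and 9 were not called, with a median of -0.21. The share called, 60.9%, was near the 57.2% of all tested genes. Alas1, a haem synthesis gene, had 61.7 and 56.3 CPM in LDB2-/- and 49.3 and 54.0 CPM in wild type. Its log2 fold change of 0.19 (SE 0.12) was not called. Alas2, the erythroid gene of the same step, rose by 5.36 on the log2 scale and the haem oxygenase gene Hmox2 by 1.02. The P450-binding protein gene Pgrmc1 (-1.44), the haem synthesis gene Cpox (-1.295) and the cytochrome b5 gene Cyb5b (-1.23) fell. For the mitochondrial enzymes Cyp11a1, Cyp27a1 and Cyp27b1, the ferredoxin reductase gene Fdxr rose by 0.59 and the ferredoxin gene Fdx1 was not called.

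Enzymes that act after or beside P450 also changed in both directions. Of 20 tested conjugation and epoxide hydrolase genes, 9 fell, 4 rose and 7 were not called (median -0.38, 65% called, against 57.2% of all tested genes). The glutathione transferase gene Gstt1 rose by 2.69 on the log2 scale, while Gsta3 (-2.67) and Gsta2 (-2.29) of the same enzyme class fell, as did the flavin monooxygenase gene Fmo2 (-2.53) and the sulfotransferase gene Sult5a1 (-2.13). Of 23 tested eicosanoid genes, 12 fell, 7 rose and 4 were not called (median -0.82, 82.6% called). The prostaglandin D synthase gene Ptgds rose by 6.63, while Hpgds, the other gene of that step, fell (-3.00). Pla2g4b, a phospholipase gene with 101.7 and 100.5 CPM in LDB2-/- and 0 and 5.93 CPM in wild type, rose by 5.11, the lipoxygenase gene Alox12b fell (-3.23) and Alox8, another lipoxygenase gene, rose by 2.81. Over the 121 tested genes of the 7 lists, 63 fell and 21 rose (69.4% called, against 57.2% of all tested genes). With scaling by the library total alone 13 rose, while over all genes the number called higher went from 3521 to 2248. The filter shaped the lists too. Of the list genes named, Ppara, Arnt2, Esr1, Trpv6, Nr1h3, Ch25h, Gsta3 and Fmo2 were under 1 FPKM in both LDB2-/- libraries. Gstt1 was under it in both wild type libraries. These genes could be tested only because they differed. The lists share genes with each other, and their members were chosen with earlier results known.

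**Figure D4:**
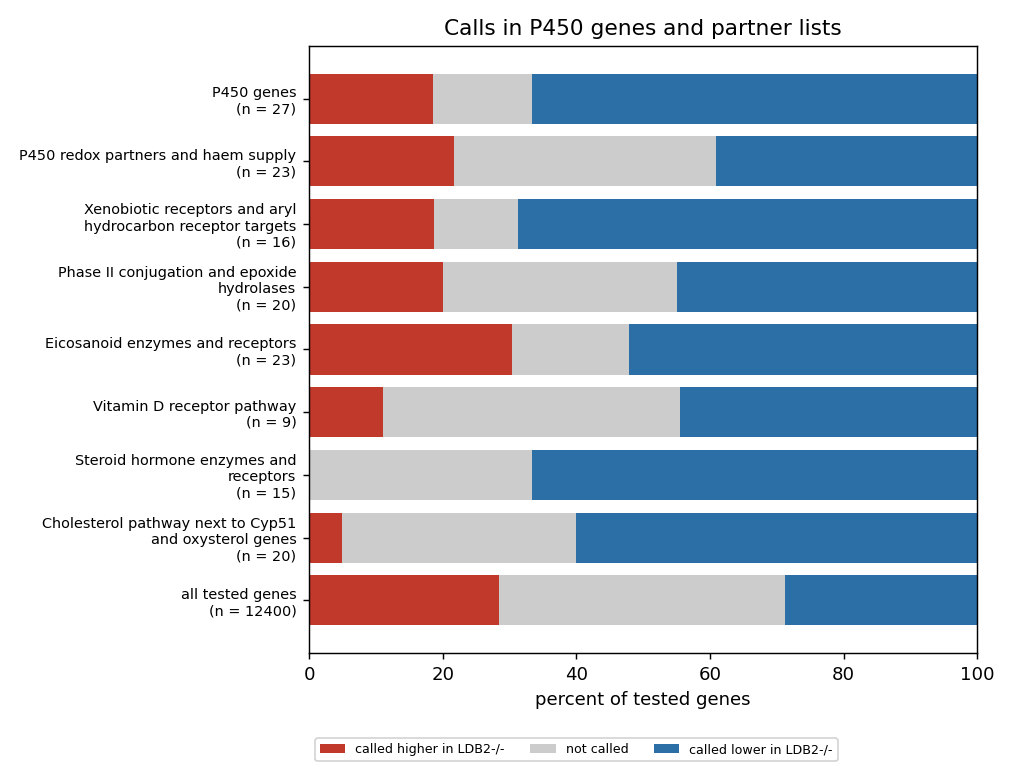
Percent of tested genes called higher in LDB2-/- (left part of each bar), not called (middle) and called lower in LDB2-/- (right part), for the P450 genes, the 7 lists and all tested genes, with n the number tested. The P450 bar has 18 of 27 genes in its right part, and the steroid list has no gene in its left part.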

How the data were processed

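Values for 2 LDB2-/- and 2 wild type epidermal libraries came from 1 table of 17721 genes. Per the submitters' processing notes, bcl2fastq 1.8.4, HISAT2 2.1.0, StringTie 1.3.4d and mm10 were used; settings and strandedness are not given in the sources used here, so overlapping and antisense genes cannot be separated. The authors deposited raw read counts per gene and FPKM, per the file headers. They also deposited log2 values normalized between libraries (method not stated) and their own comparison, per the file headers: a signed fold change, taken here as a score, a mean scaled signal, and a p-value with its Benjamini-Hochberg adjustment. The log2 and signal columns were not used.

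Counts were tested with edgeR 4.0.16 (quasi-likelihood, TMM, two-sided, Benjamini-Hochberg over 12400 genes with 1 FPKM or more in at least 2 libraries, threshold 0.05; R 4.3.3). CPM used library totals over tested genes times TMM factors. The standard error is that implied by the F statistic. Alternatives used DESeq2 1.42.0 and limma 3.58.1 on log2(FPKM + pseudocount). The edgeR script was tested on simulated data, where it called more unchanged genes than its threshold allows. Windows of 50 bases were compared over GENCODE M21 transcripts; all 47 members matched. Promoters and gene coordinates are from RefSeq (GRCm38.p6, the assembly of mm10), and 36 of 47 members had a promoter there. Members and lists were chosen with earlier results of these data known. Members were named by a written rule: all tested ones, untested ones with 50 counts or more in a library, those of the steroid and sterol families, and up to 5 genes per list with the largest fold change, of which 2 are not reported here. Star, Hsd11b2, Hsd17b6, Nr3c2, Trf, Alb, Arnt, Ugt1a6a, Ahrr, Vdr, Por, Fdx1, Fdxr and the smallest untested members were chosen after their values were seen. Figures used Python 3.11.15 with matplotlib 3.10.9. Intervals for a count of 0 cover counting error only.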

Additional observations from a re-analysis of the deposited data

How the results depend on the processing

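No call of a member changed direction under an alternative. Of 422 member values over the alternatives, 401 kept their side of the threshold, 15 lost a call and 6 gained one, and 20 of 27 members kept their call under each alternative that tested them. Calls were lost for Cyp20a1, Cyp2r1, Cyp39a1 and Cyp2g1, the last only with a robust variance fit (-1.26, adjusted p = 0.119, in a range of 3.04e-05 to 0.119), and Cyp17a1, Cyp2f2 and Cyp4f13 gained a call in some fits; the cause was not tested. Cyp4f13 was called lower by limma on FPKM only (-0.37 with a pseudocount of 1).

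Raising the filter to 5 FPKM left 2 members called higher and 12 lower among 17 tested, as fewer genes were tested. The library total alone and limma on log2(FPKM + 1), log2(FPKM + 0.5) and log2(FPKM + 0.1) each gave 13 genes of the 7 lists called higher. Over all genes these fits called 2248 to 2393 higher, against 3521 in the main fit. The summed log2 ratio of all members was -1.48 with FPKM, and that of family 4 was -1.23 with FPKM and -1.29 with the library total. With the genes that the rule left out, an alternative chosen after seeing the data, that of family 4 reversed to 0.0435. Leaving out each library in turn gave 4 to 5 members higher and 17 to 18 lower, 13 to 20 list genes higher and 57 to 61 lower, and summed log2 ratios of -1.31 to -0.86 for all members, -1.57 to -1.01 for family 2 and -1.03 to -0.91 for family 4.

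The labels number the libraries alike in both genotypes. Over 12400 genes the differences between replicates 1 and 2 correlated at -0.142 between the genotypes, so the numbers were not taken as pairs. With the replicate block, 4 members were called higher and 17 lower, and 14 and 57 of the list genes. The calls lost there were Cyp20a1 and Cyp39a1. With crossed numbers as the block, an alternative chosen after seeing the data, 5 members were called higher and 18 lower.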

Other observations

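P450 enzymes whose symbols lie outside the rule are given here for comparison. Cyp51, the demethylase of cholesterol synthesis, had 135.2 and 141.1 CPM in LDB2-/- and 231.0 and 275.1 CPM in wild type, and fell by 0.87 on the log2 scale (SE 0.13). Ptgis, the prostacyclin synthase gene, had 15 and 48 counts in LDB2-/- and 3 and 0 in wild type. Tbxas1, the thromboxane synthase gene, had 50 and 58 counts in LDB2-/- and 17 and 15 in wild type. Endothelial markers, 5 of 5 tested called higher, summed to 60.6 and 66.1 CPM in LDB2-/- and 5.08 and 7.95 CPM in wild type, with Kdr at 0 in LDB2-/-; their part in the Ptgis counts was not tested.

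Among the Cyp1a1 pathway genes under the expression filter, the aryl hydrocarbon receptor repressor gene Ahrr had 51 and 40 counts in LDB2-/- and 271 and 357 in wild type.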
